A study of Ovis aries with 16 samples.

Results

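Genes of oxidative phosphorylation were compared between the lungs of shunt and control lambs, complex by complex. They were chosen by symbol: genes whose symbol starts with NDUF, UQCR or ATP5, SDHA to SDHD with their assembly factors, and the COX4 to COX8 families. Probe sets assigned to 1 gene were used, and each gene was represented by its probe set with the highest mean over the 16 arrays. The rule gave 88 of 9155 genes. They comprise 36 subunits of complex I, 4 of complex II, 8 of complex III, 13 of complex IV and 16 of ATP synthase, together 77 subunits. The other 11 are 8 assembly factors of complexes I and II and 3 related proteins. NDUFA4 was counted with complex IV, where the protein is now placed. The genes of the mitochondrial genome, and COX4I2, COX6B1 and COX7B, were not analysed here.

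Peripheral lung of 8 control and 8 shunt lambs was collected at 3 days of age, with each array taken as 1 lamb because the labels identify no animal. Shunt lambs had received, as fetuses 9 ± 6 days before term, a prosthetic graft (8.0 mm, 2 mm in length) that joined the ascending aorta to the main pulmonary artery, whereas the control group had sham surgery. The labels name no breed, sex, genetic change or drug for either group. The model raises blood flow through the lung after birth, and the series asked about gene expression before the pulmonary vessels remodel.

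Oxidative phosphorylation takes place in the inner mitochondrial membrane. Complex I accepts electrons from NADH and complex II, which is also succinate dehydrogenase of the citric acid cycle, accepts them from succinate. Both pass them to ubiquinone, from which complex III hands them to cytochrome c and complex IV to oxygen. Complexes I, III and IV pump protons, and ATP synthase uses the returning protons to make ATP. The subunits measured here are all encoded in the nucleus. In the lung, type 2 and ciliated cells are known to be rich in mitochondria.

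All values are log2 levels made by the authors with RMA, a method that brings the arrays to a common distribution, so a change shared by all genes would not be seen. The probe sets are bovine and the RNA is from sheep, which can dim a signal, and levels are therefore compared between lambs and not between genes. The median difference of all genes, shunt minus control, was -0.014. Control replicate 2 correlated less with the other arrays (mean 0.983) than did the remaining 15 (0.990 to 0.993). Array medians were 7.14 to 7.19 in control and 7.12 to 7.14 in shunt lambs. The samples held transcripts of the distal lung, with SFTPC, a surfactant gene, at 13.44 ± 0.15 (SD, n = 8) in the control group and 13.29 ± 0.13 (SD, n = 8) in the shunt group. No batch or scan date was known. In whole lung, fewer cells of a type and less RNA per cell cannot be told apart.

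No gene of oxidative phosphorylation passed the test between shunt and control lung. Of the 88 genes, 0 had an adjusted p under 0.05 by limma with Benjamini-Hochberg adjustment over 9155 genes, beside 8 of all genes (0.0874%). At an unadjusted p under 0.05 there were 5 of 88 (5.68%) as deposited, beside 14.5% of all genes. Of these 5, SDHD and NDUFB5 were higher in shunt, where 6.63% of all genes were, and NDUFAF3, COX6B2 and UQCRQ lower, where 7.92% were. The low share depended on the normalization. It was 13 of 88 after quantile normalization again and 12 of 88 after cyclic loess normalization. Of all genes, 563 were then higher and 761 lower at this p, and 650 and 665 after cyclic loess, beside 607 and 725 as deposited. The lowest adjusted p of the 88 was 0.242, for SDHD. The groups overlapped in all 88 genes, and they did not in 0.153% of all genes. With shares as low as 0.0874% and 0.153% over all genes, counts of 0 in 88 do not set these genes apart. In 10 of the 88 (11.4%) every shunt lamb lay on 1 side of the control mean, as in 13.1% of all genes.

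The differences themselves were small. Their median was -0.021 (range -0.21 to 0.27), and 30 genes were higher and 58 lower in shunt, so that 65.9% were lower beside 55.1% of all genes. The difference was within 0.1 log2 in 78 of the 88 genes (88.6%), beside 63.6% of all genes. For 86 of 88 (97.7%) the 95% confidence interval of the difference lay between -0.32 and 0.32 log2, which held for 77.2% of all genes. The 2 exceptions were COX6B2, whose interval reached down to -0.40, and SDHAF4, whose interval reached up to 0.55. The standard errors were similar, with a median of 0.067 for the 88 genes and 0.073 for all genes. The direction of the small differences changed with single lambs: 39 of 88 were lower without control replicate 7, and 69 without control replicate 2. Without shunt replicate 7 the count was 46. With any lamb other than control replicate 7 left out, more of the 88 were lower than higher. After each array was centred on its own median 42 were lower, and after cyclic loess normalization 67. The median moved with these settings, to 0.0053 without control replicate 7, -0.043 without control replicate 2, 0.0024 after centring, -0.047 after cyclic loess and -0.052 when the arrays were quantile-normalized again.

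The medians of the single complexes moved in the same way. From values as deposited of -0.033 in complex I, -0.018 in complex II, -0.034 in complex III, -0.055 in complex IV and -0.0098 in ATP synthase, quantile normalization again gave -0.052, -0.057, -0.073, -0.088 and -0.044. Cyclic loess gave -0.046, -0.047, -0.066, -0.089 and -0.047, and centring gave -0.010, 0.0055, -0.010, -0.032 and 0.013, in the same order. Without control replicate 7 the medians were 0.0098, 0.0053, 0.0066, -0.022 and 0.016, so that complex IV alone of the 5 kept a median below 0 without that lamb.

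**Figure D1:**
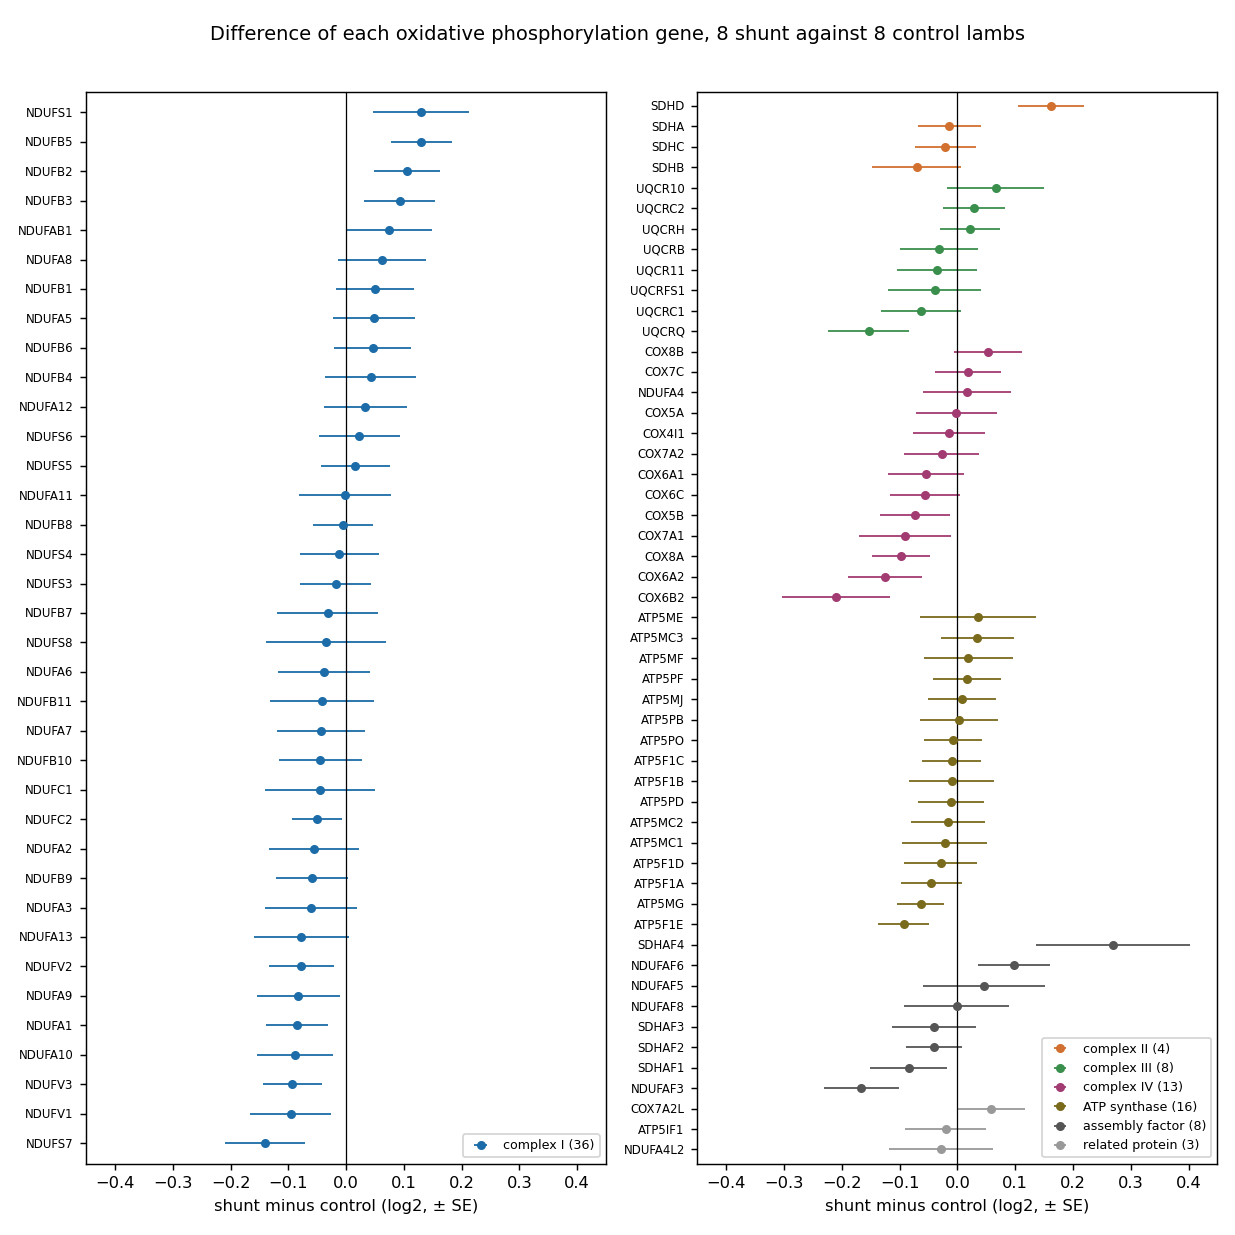
Difference in log2 level, shunt minus control (horizontal axis), of each of the 88 genes, with complex I at left and the other complexes, assembly factors and related proteins at right, and the standard error of the fit as bars (8 lambs per group). The points of the 77 subunits lie between -0.21 (COX6B2) and 0.16 (SDHD), and 69 of them within 0.1 of 0.

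Among the 36 subunits of complex I, 13 were higher and 23 lower in shunt, with a median of -0.033 (range -0.14 to 0.13). The core subunits carry the flavin and the iron-sulfur clusters along which electrons travel. Of 6 measured, 5 were lower and 1 higher (median -0.056). NDUFS7, which holds the last cluster before ubiquinone, ranged in control lambs from 9.11 to 9.65 (median 9.31) and in shunt lambs from 8.96 to 9.33 (median 9.20). All 8 shunt lambs were below the control mean, but the groups overlapped, and the difference of -0.14 ± 0.070 (SE) did not pass (limma, adjusted p = 0.359). NDUFV1, the subunit that binds NADH, differed by -0.096 ± 0.070 with all 8 shunt lambs again below the control mean, of which replicate 6 was the lowest at 8.67. Without that lamb NDUFV1 differed by -0.055. NDUFS1, the largest core subunit, went the other way, at 0.13 ± 0.083 and above the control mean in 5 of 8. NDUFS3, another core subunit, differed by -0.018.

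The accessory subunits of complex I surround the core. Of the 13 named NDUFA or NDUFAB, 4 were higher and 9 lower (median -0.043), with NDUFA1, needed for assembly of the membrane arm, at -0.086 ± 0.054. Of the 13 named NDUFB or NDUFC, which lie in the membrane arm, 6 were higher and 7 lower (median -0.0052). NDUFB5 ranged in control lambs from 6.85 to 7.22 (median 7.03) and in shunt lambs from 7.07 to 7.30 (median 7.16). Every shunt lamb was above the control mean, while the lowest shunt lamb lay among the control lambs. The difference was 0.13 ± 0.053, or 9.45%, and did not pass (limma, adjusted p = 0.283). NDUFB2 differed by 0.11 ± 0.057 and NDUFB1 by 0.050 ± 0.067, or 0.0021 without control replicate 5. The 4 accessory subunits named NDUFS or NDUFV were split evenly, 2 in each direction, with NDUFV3 at -0.093 ± 0.051.

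Complex II held the gene of smallest p among the 88 and 3 genes within 0.1 log2 of 0. SDHD, a membrane anchor of the complex, ranged in control lambs from 11.63 to 11.97 (median 11.75) and in shunt lambs from 11.84 to 12.07 (median 11.95). Every shunt lamb was above the control mean, and the highest control lambs reached into the range of the shunt lambs. SDHD differed by 0.16 ± 0.057, or 11.9%, with an unadjusted limma p of 0.0107 and an adjusted p of 0.242. In the 16 fits that left out 1 lamb it lay between 0.14 and 0.19. SDHC, the other membrane anchor, differed by -0.021 ± 0.052, SDHA, the flavoprotein, by -0.014 ± 0.055, and SDHB, the iron-sulfur subunit, by -0.071 ± 0.076, or -0.031 without control replicate 7. These 3 values had the opposite sign to that of SDHD, and the difference between the subunits was not tested.

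Of the 8 subunits of complex III, 3 were higher and 5 lower (median -0.034). UQCRQ, a small subunit beside cytochrome b, ranged in control lambs from 8.23 to 8.65 (median 8.41) and in shunt lambs from 8.09 to 8.48 (median 8.28). Only shunt replicate 2 was above the control mean, and the groups overlapped over most of their range. The difference was -0.15 ± 0.070 and did not pass (limma, adjusted p = 0.329). The unadjusted p stayed under 0.05 in 6 of the 16 fits that left out 1 lamb. The catalytic iron-sulfur protein UQCRFS1 differed by -0.040 ± 0.080. The core proteins UQCRC1 and UQCRC2 differed by -0.062 ± 0.069 and 0.028 ± 0.054, and the small subunits UQCR10 and UQCR11 by 0.066 ± 0.084 and -0.035 ± 0.069. Without control replicate 2 the value of UQCR10 was 0.0044.

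Complex IV had the lowest median of the 5 complexes as deposited, -0.055, with 3 subunits higher and 10 lower. For 9 subunits found in most tissues the median was -0.027. COX8A differed by -0.098 ± 0.050 (limma, adjusted p = 0.373) with 7 of 8 shunt lambs below the control mean. COX5B differed by -0.074 ± 0.061, COX6C by -0.056 ± 0.061 and COX6A1 by -0.055 ± 0.066. COX4I1, the subunit through which ATP regulates the enzyme, differed by -0.015 ± 0.063. COX7A2, NDUFA4 and COX5A lay between -0.027 and 0.016.

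The 4 isoforms of complex IV known mainly from other tissues had a median of -0.11, with 3 lower and 1 higher. COX6B2, known from testis, ranged in control lambs from 7.84 to 8.32 (median 7.97) and in shunt lambs from 7.36 to 8.08 (median 7.87). Shunt replicate 7 was the lowest lamb, and only shunt replicate 3 was above the control mean. The difference of -0.21 ± 0.093 was the largest of the 77 subunits and did not pass (limma, adjusted p = 0.316). The unadjusted p stayed under 0.05 in 11 of 16 fits that left out 1 lamb. COX6A2, COX7A1 and COX8B are isoforms of heart and skeletal muscle. COX6A2 differed by -0.12 ± 0.064, with all 8 shunt lambs below the control mean, COX7A1 by -0.090 ± 0.080 and COX8B by 0.053 ± 0.059. Of 11 measured markers of cardiac and striated muscle, 3 were higher and 8 lower in shunt, 4 with an unadjusted p under 0.05 (36.4%), and the mean of the list per lamb ranged from -0.053 to 0.17 in control and from -0.084 to 0.050 in shunt lambs. Within that list TNNT2 differed by -0.20 and CKM by 0.52. TNNT2 was dim (4.96 in control and 4.76 in shunt lambs), whereas CKM was bright (11.49 and 12.01). MYL2, MYL3, TNNI3 and TNNC1, all lower in shunt, also lay under 5.81, the level that bounds the dimmest 25% of probe sets. Of the brighter markers, CKM, MYH7 and ACTC1 were higher and NPPA, MB and ACTN2 lower. The part of muscle in the isoform values was not tested.

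As deposited, ATP synthase was the complex with the smallest differences. With cyclic loess its median, -0.047, was near those of complexes I and II (-0.046 and -0.047). All 16 subunits lay within 0.1 log2 of 0, from -0.093 to 0.036, and 0 had an unadjusted p under 0.05. The 5 subunits of F1, the catalytic head, were all lower as deposited (median -0.029). ATP5F1E ranged in control lambs from 11.80 to 12.02 (median 11.95) and in shunt lambs from 11.75 to 11.90 (median 11.82). All 8 shunt lambs were below the control mean, with groups that overlapped, and the gene differed by -0.093 ± 0.045 (limma, adjusted p = 0.345). ATP5F1A and ATP5F1B, the main subunits of the head, differed by -0.045 ± 0.052 and -0.0099 ± 0.073, and the latter was at 0.013 after centring of the arrays, which adds 0.023 to every difference, more than the -0.0098 of ATP5F1C. ATP5F1D differed by -0.029. The 3 genes of the c ring, the rotor through which protons pass, encode the same mature protein, and ATP5MC1, ATP5MC2 and ATP5MC3 differed by -0.022, -0.016 and 0.034. The 4 subunits of the peripheral stalk had a median of -0.0022. Of 4 small membrane subunits, ATP5MG differed by -0.064 ± 0.040, with all 8 shunt lambs below the control mean, and ATP5ME differed by 0.036 ± 0.10.

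Assembly factors join the subunits or insert their cofactors and are not part of the finished complex. Of 8, 3 were higher and 5 lower (median -0.021). NDUFAF3, a complex I factor, ranged in control lambs from 8.87 to 9.31 (median 9.10) and in shunt lambs from 8.73 to 9.08 (median 8.96). All 8 shunt lambs were below the control mean and the groups overlapped. The difference was -0.17 ± 0.065, or -10.9%, and did not pass (limma, adjusted p = 0.264). Its other probe sets differed by -0.092 and -0.055, and its unadjusted p was no longer under 0.05 when the most variable probe set represented the gene. NDUFAF6, another complex I factor, differed by 0.098 ± 0.063, above the control mean in 8 of 8. Of the complex II factors, SDHAF4 had the largest difference of the 88 genes, 0.27 ± 0.13 (limma, adjusted p = 0.359). It was the only member among the dimmest 25% of probe sets, and control replicate 2 was its lowest lamb at 4.73. Without that lamb SDHAF4 differed by 0.16 and NDUFAF3 by -0.20. SDHAF1 differed by -0.084 and SDHAF3 by -0.041.

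**Figure D2:**
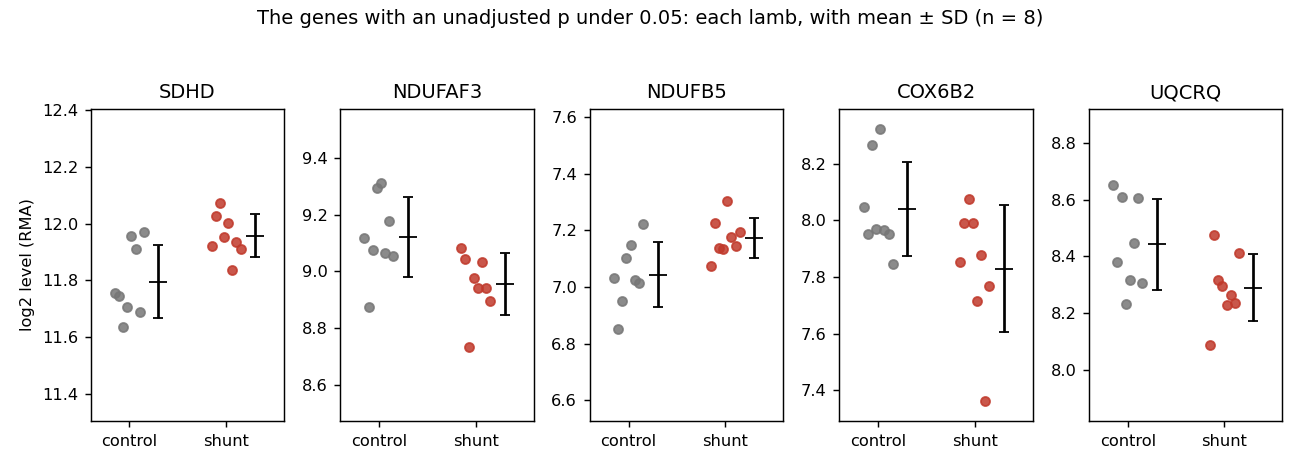
Log2 level in each lamb of the 5 genes with an unadjusted p under 0.05, with the mean ± SD of each group (n = 8). SDHD and NDUFB5 are higher and NDUFAF3, COX6B2 and UQCRQ lower in shunt, and the lambs of the groups overlap in every panel.

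The 3 related proteins also lay near 0. NDUFA4L2, a paralog of NDUFA4 known to be induced by hypoxia, differed by -0.029 ± 0.090. COX7A2L, which joins complexes III and IV in supercomplexes, differed by 0.059 ± 0.059. ATP5IF1, the inhibitor that stops ATP synthase from running in reverse, differed by -0.021 ± 0.070.

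A further 27 probe sets belonged to 24 of the 88 genes, and 0 of them passed. In 22 the difference had the sign of the gene's representative probe set, and in 5 the opposite sign: those of UQCRC2 (-0.20), NDUFA4 (-0.11), COX8B (-0.048), ATP5MG (0.13) and SDHAF3 (0.17). An unadjusted p under 0.05 was found in 6 of the 27, 5 of them lower in shunt (limma, adjusted p from 0.257 to 0.331 over all probe sets). Of all 24016 probe sets, 13.7% had such a p and 7.32% had it with the lower value in shunt, while 0.0708% passed after adjustment. The lower ones were COX6A1 (-0.34), UQCRC1 (-0.21), UQCRC2 (-0.20), SDHAF1 (-0.18) and NDUFS3 (-0.17), and the higher one was NDUFB1 (0.21). For these genes the value depends on the probe set read. The further probe sets of NDUFB1 (mean level 4.52), UQCRC1 (5.17), SDHAF3 (5.41), NDUFA4 (5.57) and NDUFS3 (5.80) were among the dimmest 25%. Those of COX6A1 (6.04), SDHAF1 (7.19), COX8B (8.09), UQCRC2 (8.94) and ATP5MG (10.35) were brighter.

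Other mitochondrial genes were examined beside the complexes, and 0 passed in any of the lists (limma, Benjamini-Hochberg adjustment over all genes). Of 8 electron carriers and dehydrogenases that feed ubiquinone, 4 were higher and 4 lower, and 0 had an unadjusted p under 0.05. Of 17 assembly factors of complexes III to V, 6 were higher and 11 lower. An unadjusted p under 0.05 was found for COX15, an enzyme of heme A synthesis, at 0.25 ± 0.095, and for TMEM177 (-0.19 ± 0.057) and the F1 assembly factor ATPAF2 (-0.13 ± 0.052). Of 7 further complex I factors, 2 were higher and 5 lower, with ACAD9 at -0.19 ± 0.064. Of 13 regulators of mitochondrial biogenesis, 6 were higher and 7 lower. POLG2, of the mitochondrial DNA polymerase, differed by -0.16, SIRT1 by 0.19, and the coactivator PPARGC1A by 0.037 ± 0.15. The 67 mitochondrial ribosomal proteins were split into 33 higher and 34 lower. As deposited, an unadjusted p under 0.05 was found for 4 of them (5.97%), beside 5.68% of the 88 genes and 14.5% of all genes. Their lowest adjusted p was 0.113 (limma), for MRPS9.

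The citric acid cycle and pyruvate dehydrogenase had 12 of 22 genes higher and 10 lower, with DLD at 0.16 ± 0.073 and DLAT at 0.13 ± 0.067. With its most variable probe set DLAT was at -0.074. Among 8 genes that exchange adenine nucleotides and phosphate across the mitochondrial membranes, 2 were higher and 6 lower. The 2 higher ones were SLC25A5, an ATP/ADP carrier, at 0.14 ± 0.048 (adjusted p = 0.242), and VDAC1, a channel of the outer membrane, at 0.13 ± 0.048 (adjusted p = 0.245, higher than the control mean in 8 of 8 shunt lambs). In the list of 18 genes for inner membrane organization and import, 9 were higher and 9 lower. CHCHD6, a component of the complex that shapes the cristae, differed by -0.24 ± 0.051 (limma, adjusted p = 0.0837), and every shunt lamb was below every control lamb.

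Lambs differed from each other in the level of the whole set more than the groups did. For each lamb the levels of the 77 subunits, each as its distance from the gene's mean over the 16 arrays, were averaged. Control lambs had a mean of 0.0093 ± 0.11 (SD, n = 8) and shunt lambs one of -0.0093 ± 0.068 (SD, n = 8), a difference of -0.019. Control lambs ranged from -0.16 (replicate 2) to 0.19 (replicate 7) and shunt lambs from -0.12 (replicate 7) to 0.12 (replicate 2). As deposited the range of the control lambs contained all the shunt lambs. After cyclic loess the difference was -0.043, with means of 0.022 ± 0.079 and -0.022 ± 0.053 (SD, n = 8 each), and shunt replicate 7 lay below the lowest control lamb (-0.072). After quantile normalization again it was -0.049, with 2 shunt lambs below the lowest control lamb, and after centring it was 0.0044.

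The 4 lambs described next were picked as the highest and lowest of their groups by the mean of the same 77 subunits. A high or low share of subunits above their own mean follows in part from that choice. Whether the subunits moved together was not tested. In control replicate 7, 72 of 77 subunits (93.5%) were above their own mean, and in shunt replicate 2, 69 of 77 (89.6%). In control replicate 2 only 9 (11.7%) were, and in shunt replicate 7 only 10 (13.0%). Among the other genes with the brightest 25% of probe sets (2231), the shares in these 4 lambs were 56.7%, 60.8%, 26.6% and 34.9%. Control replicate 7 was the highest lamb in complexes I, III, IV and ATP synthase, and shunt replicate 2 was next to it in each of these. In complex II control replicate 5 was the highest. Control replicate 2 was the lowest in complexes I, II, III and ATP synthase, and shunt replicate 7 was the lowest in complex IV.

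**Figure D3:**
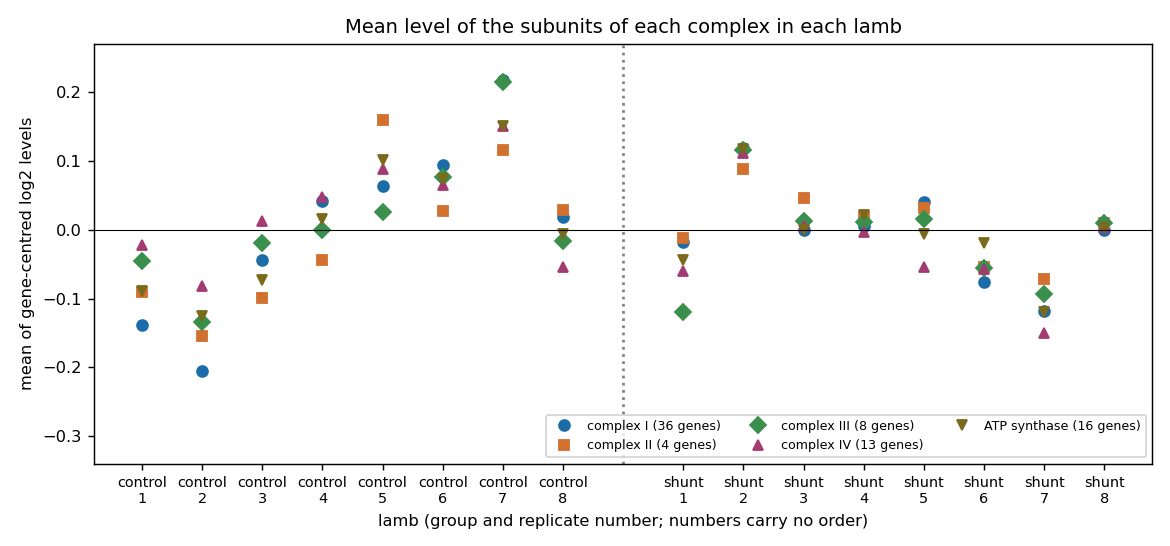
Mean of the subunits' log2 levels in each lamb, each as the distance from the gene's mean over 16 arrays, for the 5 complexes (8 control and 8 shunt lambs). Control replicate 7 and shunt replicate 2 are high and control replicate 2 is low in most complexes, while the groups overlap in all of them.

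How far these lambs stood apart depended in part on the normalization. With cyclic loess, chosen as a check after the values were seen, control replicate 7 was at 0.17 and shunt replicate 2 at 0.089, against 0.19 and 0.12 as deposited. Control replicate 2, by contrast, moved from -0.16 to -0.049, and shunt replicate 7 from -0.12 to -0.083. Most of the subunits have bright probe sets. The brightest 25% of the other genes averaged -0.12 in control replicate 2 and -0.056 in shunt replicate 7 as deposited, and 0.0017 and -0.017 with cyclic loess. They averaged 0.023 in control replicate 7 and 0.040 in shunt replicate 2 as deposited, and 0.010 and 0.0074 with cyclic loess. As deposited, other bright genes thus shared part of the low level in the 2 low lambs and less of the high level in control replicate 7. The 67 mitochondrial ribosomal proteins averaged 0.16 in control replicate 7, 0.085 in shunt replicate 2, -0.060 in shunt replicate 7 and -0.17 in control replicate 2, in the same directions as the subunits. With cyclic loess these values were 0.13, 0.075, -0.030 and -0.091.

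The spread between lambs was wider in the control group. The SD of the control lambs was larger than that of the shunt lambs in 72 of the 88 genes (81.8%), beside 67.3% of all genes, with medians of 0.15 and 0.11. It was so for 30 of 36 complex I subunits, 4 of 4 in complex II, 7 of 8 in complex III, 10 of 13 in complex IV and 13 of 16 in ATP synthase. Without control replicate 2 the count was 58 of 88 (65.9%, beside 56.7% of all genes), and without control replicate 7 it was 55 (62.5%, beside 66.0%). Without both it was 49 (55.7%), beside 54.8% of all genes. These were the lowest and highest control lambs by the mean of the subunits, and every shunt lamb was kept. The fall in the count thus follows largely from the choice of lambs. These fits without lambs were chosen after the values were seen, and a difference in spread between the groups was not tested.

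**Figure D4:**
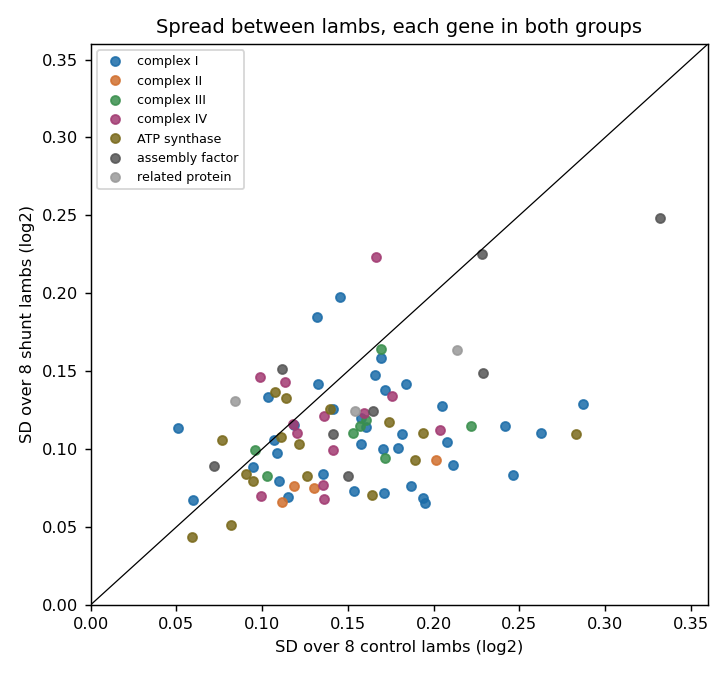
Standard deviation of the log2 level over the 8 shunt lambs (vertical axis) against that over the 8 control lambs (horizontal axis), 1 point per gene, coloured by complex, with the line of equality. In 72 of the 88 genes the control value is the larger.

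Markers of several lung cell types had larger median differences than the oxidative phosphorylation genes, and 0 of them passed by limma. Unadjusted p was under 0.05 for 3 of 7 type 2, 3 of 6 type 1, 4 of 9 endothelial, 5 of 10 smooth muscle and 4 of 11 cardiac and striated muscle markers, and for 0 of 4 macrophage, 0 of 7 erythroid and 0 of 1 ciliated markers, beside 14.5% of all genes. The 7 type 2 cell markers were all lower in shunt (median -0.19, as with SFTPB at -0.23), and the mean of the list per lamb ranged from -0.048 to 0.28 in control and from -0.26 to 0.16 in shunt lambs. Of 6 type 1 markers, 5 were lower (median -0.17; per lamb -0.20 to 0.27 in control and -0.17 to 0.099 in shunt). Of 9 endothelial markers, 7 were higher (median 0.17; per lamb -0.15 to 0.086 and -0.021 to 0.23), and of 10 smooth muscle and pericyte markers, 8 were higher (median 0.18; per lamb -0.23 to 0.10 and -0.023 to 0.18). The 4 macrophage markers, with 1 higher and 3 lower, ranged per lamb from -0.58 to 0.27 and from -0.44 to 0.30. The 7 erythroid markers, with 5 higher and 2 lower, ranged from -0.59 to 0.79 and from -0.15 to 0.42, and HBB differed by 0.68 ± 0.36. With its most variable probe set HBB differed by -0.31. The single measured ciliated marker, TPPP3, differed by 0.0041. The part of these cell types in the values of the respiratory chain was not tested.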

How the data were processed

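The authors deposited a table of log2 values of the probe sets, which the submitters' processing notes give as made with RMA, of a version not given in the sources used here. Per the labels' protocols, total RNA was isolated on a column and biotinylated cRNA was made from 1 ug of it. Of 24128 probe sets, 112 manufacturer's controls were left out, and of the remaining 24016 the platform annotation gave 1 symbol for 13292, several for 86 and none for 10638. The number of arrays limits the precision, and scanner files were not used here. The labels describe no lamb individually, so each array was taken as 1 lamb, and where an animal gave several arrays p-values would reflect no more than the spread from array to array.

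Groups were compared with limma 3.58.1 (lmFit and eBayes, two-sided, no covariate) in R 4.3.3 on 9155 genes, with Benjamini-Hochberg adjustment at 0.05. The script was tested on simulated data. Summaries and plots used pandas 2.3.3 and matplotlib 3.10.9 in Python 3.11.15.

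The genes, lists and markers were chosen with earlier results of these data known. Named were, per complex, the 5 genes of smallest p and the most positive and negative difference, with up to 4 assembly factors, listed isoforms and regulators, and genes whose probe sets disagree; from other lists the 2 of smallest p with at least 3 genes measured. PPARGC1A, SFTPC and MRPS9 were named after their values were seen. Alternatives were a replicate block, a filter on the dimmest 25 percent of probe sets, quantile normalization again, centring, cyclic loess, array weights, an RNA quality covariate (the 3' minus 5' signal), a robust prior with a trend, other probe sets per gene, a threshold of 0.1 and each lamb left out.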

Additional observations from a re-analysis of the deposited data

Results flagged for a closer look

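In 7 of 106 sets of 8 values, 1 lamb lay apart from the others of its group, its gap to the nearest, as a share of the group's range (the ratio below), being over Dixon's 95% critical value. About 1 in 20 sets, or 5.3 here, is picked out by chance.

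Among complex I subunits, NDUFB1 was lowest in control replicate 5, at 7.65 with the others from 7.93 to 8.16 (ratio 0.551). NDUFS7 was lowest in shunt replicate 7, at 8.96 (ratio 0.527). NDUFV1, which binds NADH, was lowest in shunt replicate 6, at 8.67 with the others from 8.94 to 9.03 (ratio 0.758).

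In complex IV and ATP synthase the lamb apart was the highest of its group. COX4I1 was at 11.76 in shunt replicate 1, with the others from 11.44 to 11.59 (ratio 0.551). COX5A was at 12.25 in control replicate 7, with the others from 11.71 to 11.92 (ratio 0.615). ATP5MC1, of the c ring, was also highest in control replicate 7, at 10.94 with the others from 10.36 to 10.61 (ratio 0.577).

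The dim assembly factor SDHAF4 was lowest in control replicate 2, at 4.73 (ratio 0.548).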

How the results depend on the processing

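In each of the 26 alternatives 0 of the 88 genes passed (limma, lowest adjusted p 0.103, for NDUFAF3 with array weights). Few of all genes passed either, from 0 with the replicate block to 64 without shunt replicate 1, beside 8 of 9155 as reported. Counts of 0 in 88 therefore do not set these genes apart. The count of lower genes with an unadjusted p under 0.05, 3 as reported, was 10 after quantile normalization again, 9 with cyclic loess, 8 with probe sets averaged per gene, 7 with the most variable probe set, 1 after centring, and 1 to 7 with 1 lamb left out. The higher count, 2 as reported, was 4 after centring and 1 to 4 with 1 lamb left out. With a replicate block these counts were 2 lower and 2 higher. Between lambs with the same replicate number, the deviations from each gene's group mean correlated over 0.1 in 2 of 8 pairs (range -0.27 to 0.19). The shunt lamb of the same number was the best match for 0 of the 8 control lambs. Whether the numbers mark a pairing of the lambs cannot be told from these correlations. For all genes the split at this p moved from 607 higher and 725 lower to 849 and 448 after centring, which shifts values by 0.023.

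Signs of differences near 0 were unstable. After quantile normalization again UQCRC2, NDUFA4 and ATP5MC3 were at -0.0085, -0.019 and -0.014, and with cyclic loess at -8.9e-05, -0.023 and -0.0082. After centring the values were NDUFS3 0.0049, SDHC 0.0023, SDHA 0.0088, COX4I1 0.0084, COX5A 0.021, ATP5F1B 0.013, ATP5MC1 0.00094, ATP5MC2 0.0068 and ATP5IF1 0.0025. With array weights ATP5ME was at -0.036. With the mean of probe sets UQCRC2 was at -0.087, NDUFA4 at -0.047, ATP5MG at 0.032 and SDHAF3 at 0.063. With the most variable probe set these were at -0.20, -0.11, 0.13 and 0.17. That choice of probe set also reversed larger differences. DLAT, at 0.13 as reported, was at -0.074, and HBB, at 0.68 as reported, was at -0.31. With 1 lamb left out the ranges were ATP5F1B -0.046 to 0.028, ATP5IF1 -0.045 to 0.019, ATP5MC1 -0.050 to 0.032, ATP5MC2 -0.041 to 0.029, ATP5ME -0.031 to 0.077, COX4I1 -0.046 to 0.016, COX5A -0.039 to 0.050, COX7A2 -0.058 to 0.0055, NDUFA4 -0.020 to 0.051, NDUFA4L2 -0.071 to 0.022, NDUFS3 -0.043 to 0.0095, SDHA -0.034 to 0.015, SDHAF3 -0.080 to 0.0051 and UQCRFS1 -0.070 to 0.011. Without losing their sign, further values moved by over 1.5 times with 1 lamb left out, among them the following. Without control replicate 7 NDUFA1 was at -0.056, UQCRC1 at -0.024, COX6A1 at -0.022 and COX7A1 at -0.047. Without shunt replicate 2 NDUFS1 was at 0.083, COX6C at -0.085 and ATP5MC3 at 0.0072. Without shunt replicate 7 COX5B was at -0.044, ATP5F1A at -0.021 and COX7A2L at 0.098. NDUFAF6 was at 0.058 without control replicate 2, COX8B at 0.024 without control replicate 1 and SDHAF1 at -0.042 without shunt replicate 3. SDHC was at -0.00024 without control replicate 5, UQCR11 at -0.0032 without control replicate 6 and UQCRC2 at 0.0025 without control replicate 3. ATP5F1D was at -0.0030 without shunt replicate 8. The cause was not tested.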
